A study of Mus musculus with 16 samples.

Results

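The 27 genes described here encode enzymes of cholesterol synthesis, the transcription factor SREBP2 with the proteins that hold or cleave it, and a pair of sterol-handling proteins. They were chosen by symbol as members of that pathway, with earlier results of these data known. All 27 were found among the 23420 genes of the count tables (Msmo1 is listed there under its older symbol Sc4mol). The tables come from 8 male C57BL/6 mice, of which 4 carry the wild-type label and 4 the label of an adipocyte-specific Trib1 knockout. Values per library are given in the order WT-1135, WT-1136, then WT-1138 and WT-1153 for wild-type and KO-1137, KO-1139, then KO-1151 and KO-1152 for knockout-labelled mice. Each mouse gave 1 library of polyadenylated RNA from subcutaneous fat cells freed with collagenase and 1 from whole liver, so there are 16 libraries in 4 groups of 4. Mice WT-1153, KO-1151 and KO-1152 were 70 days old and the others 76 days old. No treatment is named, and the labels give neither the promoter that drove the deletion nor the deleted part of Trib1.

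Cholesterol is built from acetyl-CoA by way of mevalonate, isoprenoids, squalene and lanosterol, and lanosterol is then trimmed and reduced to cholesterol. SREBP2 is made as a precursor in the membrane of the endoplasmic reticulum, bound to the escort protein SCAP. When sterols are scarce, SCAP carries it to the Golgi, where the site-1 and site-2 proteases release the part that enters the nucleus and switches on the genes of the pathway, and when sterols are plentiful the INSIG proteins hold SCAP back. Liver is a main site of cholesterol synthesis, while adipocytes store much free cholesterol and are known for low synthesis.

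Trib1, the gene for the pseudokinase tribbles 1, did not separate the genotype labels. Its level in adipocytes was 751 to 1292 CPM (counts scaled by TMM-adjusted library totals) where the label was wild-type and 1071 to 1408 CPM where it was knockout. The log2 difference was 0.28 ± 0.18 there (SE, n = 4 per group, adjusted p = 0.241 by edgeR) and 0.12 ± 0.18 in liver (adjusted p = 0.875 by edgeR). The groups are therefore called by their labels. Totals were 28560887 to 53716669 counts per library, and every one of the 27 genes had at least 117 counts in every library. Counting error was not estimated apart from the spread between mice. Adipocyte markers summed to 41060 to 57868 CPM in adipocyte libraries against 191 to 239 CPM in liver, and hepatocyte markers to 126925 to 164380 CPM in liver against 31.7 to 134 CPM in adipocytes, as the tissue labels state. In the adipocyte libraries of knockout-labelled mice 12 of 12 endothelial, 10 of 12 fibroblast and progenitor and 7 of 9 tested mural markers were lower (edgeR). Over all tested genes 17.1% were lower. Of the tested macrophage, lymphocyte and skeletal muscle markers 0 of 10, 2 of 9 and 1 of 5 were lower. The endothelial markers summed to 256 to 596 CPM in the knockout-labelled adipocyte libraries against 914 to 2592 CPM in the wild-type ones, and the fibroblast and progenitor markers to 727 to 1362 against 1675 to 1768 CPM. The mural sums overlapped, at 464 to 586 against 566 to 744 CPM. In such bulk samples fewer cells of a type and less RNA per cell cannot be told apart.

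In adipocytes, most of the cholesterol synthesis genes were higher in the knockout-labelled mice. Of the 27 genes 14 rose and 1, Lbr, fell (edgeR's quasi-likelihood test, adjusted p under 0.05 over all genes, n = 4 per group), against 18% of the 13795 tested genes that rose and 17.1% that fell. The median log2 difference was 0.41 over the 27 genes and -0.01 over all tested genes. The CPM values of the groups did not overlap for 17 of the 27 genes, against 33.9% of all tested genes. The summed level of the 19 enzymes was 959 ± 136 CPM (SD, n = 4) in knockout-labelled adipocytes against 666 ± 43.2 CPM in wild-type ones, with ranges of 856 to 1159 and 622 to 725 CPM that did not overlap.

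**Figure D1:**
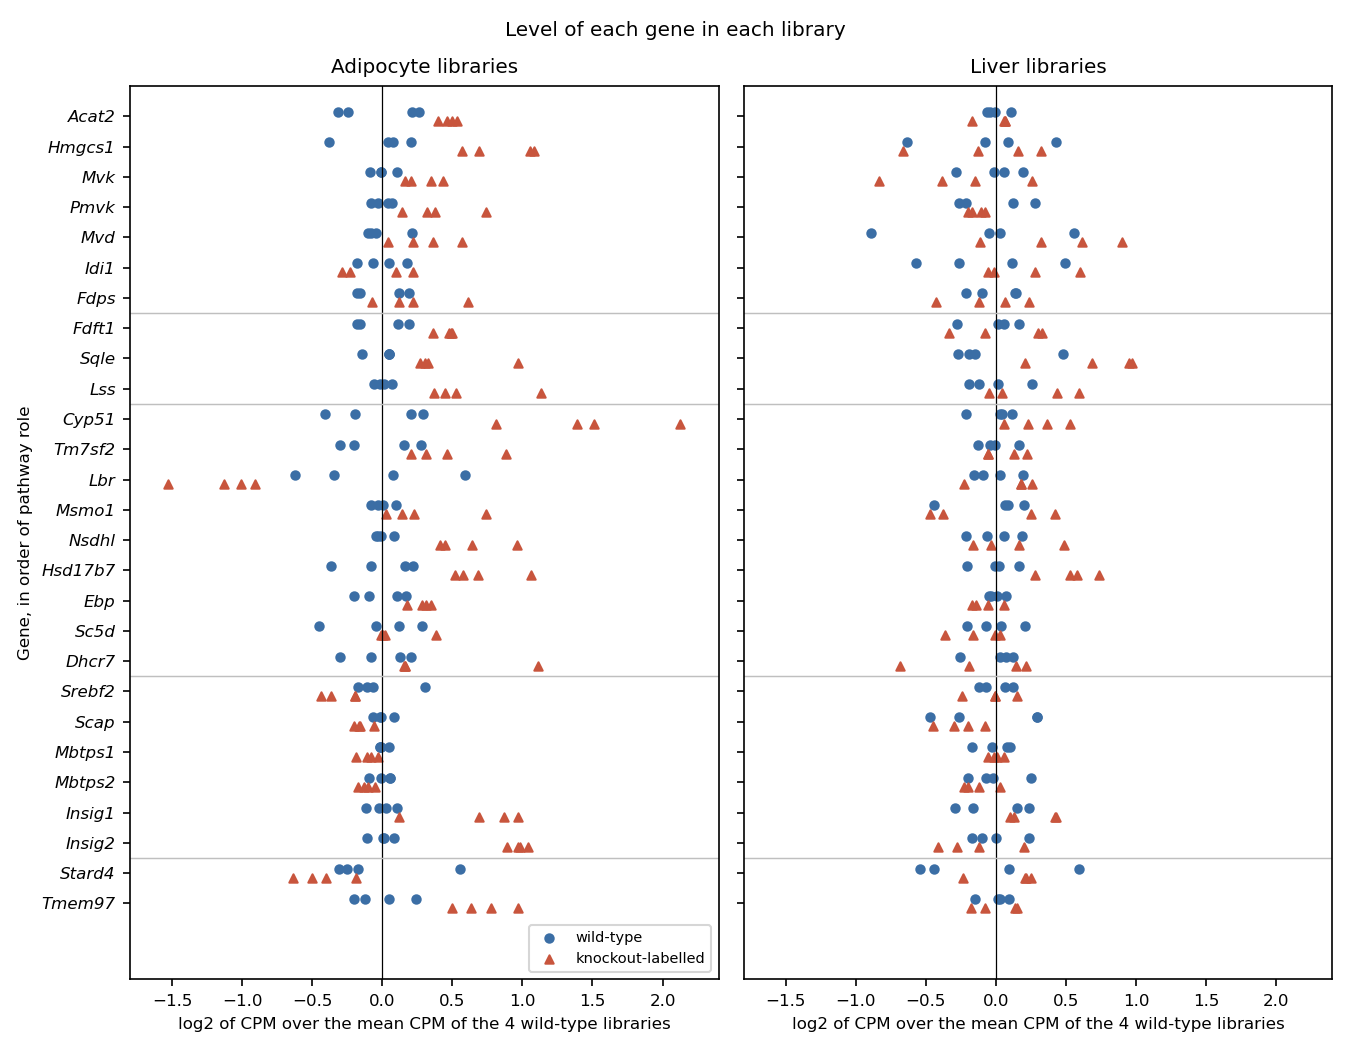
Level of each of the 27 genes in each library, as the log2 of its CPM over the mean of the 4 wild-type libraries of that tissue (circles wild-type, triangles knockout-labelled; lines part the pathway roles). In adipocytes the triangles of Cyp51, Hmgcs1, Nsdhl, Insig2 and Tmem97 lie to the right of all circles and those of Lbr to the left, while in liver only Hsd17b7 has groups that do not overlap.

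Among the mevalonate steps 4 of 7 genes rose and 0 fell in adipocytes, with a median log2 difference of 0.31. Hmgcs1, the cytosolic HMG-CoA synthase, stood at 95.7, 69.8, 93.3 and 105 CPM in the wild-type mice and at 147, 189, 193 and 135 CPM in the knockout-labelled mice. The lowest knockout-labelled library was above the highest wild-type one, and the log2 difference was 0.87 ± 0.15 (SE; edgeR adjusted p = 0.00303). Acat2, the cytosolic thiolase that makes acetoacetyl-CoA, rose by 0.48 ± 0.13 on the log2 scale (edgeR adjusted p = 0.0206). Mvk and Pmvk, the kinases that phosphorylate mevalonate and its phosphate, rose by 0.29 ± 0.09 and 0.41 ± 0.12 (edgeR adjusted p = 0.0274 and 0.0234). The later steps did not pass: Mvd, the decarboxylase that yields isopentenyl diphosphate, was at 0.31 ± 0.16, Fdps, the farnesyl diphosphate synthase, at 0.24 ± 0.15 and Idi1, the isomerase between them, at -0.04 ± 0.14 (edgeR adjusted p = 0.152, 0.239 and 0.873).

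All 3 genes of squalene and lanosterol formation rose. Fdft1, squalene synthase, was at 46.4, 47.1, 57.0 and 60.1 CPM in the wild-type mice and at 67.6, 74.0, 74.2 and 73.1 CPM in the knockout-labelled mice. These ranges were separate, and the log2 difference was 0.46 ± 0.10 (edgeR adjusted p = 0.00649). Lss, lanosterol synthase, rose by 0.65 ± 0.16 and Sqle, squalene epoxidase, by 0.50 ± 0.16 (edgeR adjusted p = 0.0113 and 0.0378). For Sqle and Lss the library of mouse KO-1139 was far above the rest of its group, at 20.1 against 12.4 to 12.9 CPM and at 45.3 against 26.7 to 29.8 CPM. Without that mouse the log2 difference of Sqle was 0.31 ± 0.11 and missed the threshold (adjusted p = 0.0647 by edgeR).

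Of the 9 genes that turn lanosterol into cholesterol 4 rose and 1 fell. Cyp51, the demethylase of lanosterol, had the largest log2 difference of the 27 genes. It stood at 31.6, 27.2, 41.7 and 44.1 CPM in the wild-type mice and at 63.3, 158, 94.6 and 103 CPM in the knockout-labelled mice. Every knockout-labelled library was above every wild-type one, with mouse KO-1139 highest and mouse KO-1137 lowest of the group, and the level was 2.9-fold higher (log2 difference 1.54 ± 0.26, edgeR adjusted p = 0.00257). Nsdhl, which removes the carboxyl group at carbon 4, was at 53.3, 54.6, 53.8 and 58.1 CPM and at 75.0, 107, 72.9 and 85.8 CPM, a log2 difference of 0.63 ± 0.12 (edgeR adjusted p = 0.00385). Hsd17b7, the 3-ketosteroid reductase of the same reaction series, was at 7.85, 6.44, 9.28 and 9.65 CPM and at 11.9, 13.3, 17.3 and 12.4 CPM, a log2 difference of 0.73 ± 0.17 (edgeR adjusted p = 0.00876). The groups overlapped for neither gene. Ebp, the sterol isomerase, rose by 0.28 ± 0.09 (edgeR adjusted p = 0.0413). Msmo1, the oxidase that acts before Nsdhl, was at 0.31 ± 0.15, Dhcr7, which makes cholesterol in the last step of 1 branch, at 0.46 ± 0.23, and Sc5d, the desaturase before it, at 0.11 ± 0.15, and none of these passed (edgeR adjusted p = 0.124, 0.147 and 0.604). For Dhcr7 mouse KO-1139 stood at 22.2 CPM against 11.4 to 11.5 CPM in the rest of its group and 8.33 to 11.8 CPM in the wild-type mice. Without that mouse Dhcr7 was at 0.16 ± 0.14 and Msmo1 at 0.14 ± 0.09 (edgeR adjusted p = 0.431 and 0.308).

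Tm7sf2 and Lbr encode the paralogous reductases that can each reduce carbon 14 of the sterol ring, and LBR is also the lamin B receptor of the inner nuclear membrane. Lbr stood at 30.6, 16.0, 21.4 and 13.2 CPM in the wild-type mice and at 10.8, 10.1, 7.01 and 9.26 CPM in the knockout-labelled mice. The wild-type libraries were all higher but spread widely among themselves, and Lbr fell by 1.13 ± 0.25 on the log2 scale (edgeR adjusted p = 0.00775). Tm7sf2 was at 14.2 ± 3.1 CPM (SD, n = 4) in knockout-labelled and 10.1 ± 1.93 CPM in wild-type adipocytes, with a log2 difference of 0.49 ± 0.18 that did not pass (edgeR adjusted p = 0.0593) and that passed with DESeq2 and limma-voom (adjusted p = 0.0395 and 0.0498).

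Of the 6 genes of the SREBP2 machinery 2 rose, Insig1 and Insig2, and the other 4 did not pass the test. Insig2, an anchor that holds SCAP in the endoplasmic reticulum, stood at 48.3, 52.6, 55.3 and 52.4 CPM in the wild-type mice and at 107, 102, 96.7 and 103 CPM in the knockout-labelled mice. Both groups were tight and far apart, and the level was 1.96-fold higher (log2 difference 0.97 ± 0.07, edgeR adjusted p = 4.04e-05), with the smallest p of the 27 genes. Insig1, the other anchor and itself a target of SREBP2, was at 248, 273, 264 and 289 CPM and at 292, 526, 491 and 432 CPM. Mouse KO-1137, at 292 CPM, was just above the highest wild-type library, and Insig1 rose by 0.70 ± 0.16 (edgeR adjusted p = 0.0103). The ratio of Insig1 to Insig2, each per kilobase of exon, was 2.97 to 5.66 in knockout-labelled against 5.23 to 6.03 in wild-type adipocytes, and mouse KO-1137 gave the lowest value.

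The genes for SREBP2 itself, its escort and its proteases did not pass the test, and their 4 estimates were all below 0. Srebf2 was at 43.6, 32.7, 33.7 and 31.3 CPM in the wild-type mice and at 30.8, 30.9, 26.0 and 27.4 CPM in the knockout-labelled mice. The highest knockout-labelled value was just below the lowest wild-type value, and the log2 difference was -0.30 ± 0.12 (edgeR adjusted p = 0.074). Scap was at 51.3, 47.8, 48.1 and 46.2 CPM and at 46.3, 43.0, 43.2 and 42.0 CPM, which overlap, with a log2 difference of -0.15 ± 0.07 (edgeR adjusted p = 0.109). Mbtps1 and Mbtps2, the site-1 and site-2 proteases, were at -0.10 ± 0.06 and -0.12 ± 0.08 (edgeR adjusted p = 0.226 and 0.266). With a filter of 5 CPM in 4 libraries Srebf2, Scap and Mbtps1 passed as lower, at log2 differences of -0.36, -0.21 and -0.17 (edgeR adjusted p = 0.0499, 0.0431 and 0.0494). Without TMM scaling all 4 of these genes passed as lower and 9 of the 27 genes as higher (5 lower in all, with Lbr), a setting that moved the median of all tested genes by -0.19 and gave 1294 genes higher and 3897 lower over the whole table. Relative to that median the 27 genes were at a median of 0.42, a distance that a change of library scaling leaves nearly fixed by its construction.

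Of the sterol-handling proteins, Tmem97, a sterol-binding membrane protein also known as the sigma-2 receptor, was at 6.69, 7.55, 6.36 and 8.62 CPM in the wild-type and 10.3, 14.3, 11.3 and 12.5 CPM in the knockout-labelled mice. The ranges were separate, and it rose by 0.73 ± 0.14 (edgeR adjusted p = 0.00483). Stard4, a soluble sterol carrier, was at 7.36 ± 2.33 CPM (SD) and 5.48 ± 0.731 CPM, with a log2 difference of -0.43 ± 0.21 that did not pass (edgeR adjusted p = 0.146).

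The adipocyte counts differed in fits that took account of other cells, of age or of single mice. A score of 34 endothelial, fibroblast and mural markers (mean log2 CPM) was 3.73 to 4.95 in adipocyte libraries of knockout-labelled mice against 5.19 to 6.45 in the others, so the ranges did not overlap, and the part of these markers and of the genotype cannot be told apart. With this score as a covariate 1 of the 27 genes, Insig2, was called higher (0.99 ± 0.14, edgeR adjusted p = 0.00691) and 0 lower. Cyp51, Lss and Hmgcs1 were then at 0.99 ± 0.49, 0.81 ± 0.31 and 0.64 ± 0.29 and missed the threshold (adjusted p = 0.355, 0.233 and 0.299 by edgeR). The median of the 27 genes was 0.29, their median SE grew from 0.15 to 0.27, Lbr was at 0.07 and Ebp at -0.05, and 465 genes of the whole table were called in place of 4849. Among the mice taken at 76 days alone 6 of the 27 genes were higher, namely Hmgcs1, Lss, Cyp51, Nsdhl, Insig2 and Tmem97, and Lbr was lower, while with age as a covariate in all mice 13 were higher. Without mouse WT-1135, WT-1138 or KO-1139 the count of higher genes was 10, where leaving out KO-1139 cost the calls of Acat2, Mvk, Sqle and Ebp. Without mouse WT-1153 Srebf2 passed as lower (-0.35, edgeR adjusted p = 0.0484).

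Promoter sequences were searched for letters known from SREBP targets. For Fdps, Fdft1, Sqle and Stard4 no window was found, so they were not searched. RefSeq (GRCm38.p6) gives windows of 300 bases, from 250 before to 50 after the annotated start of transcription, for 23 of the 27 genes. Several of these 23 have more than 1 start. On either strand, the CCAAT box, read by the factor NF-Y that works beside SREBP, was found in 19 of these 23 genes (82.6%), against 41.1% of all 27025 genes with a window and 42.8% of those tested in adipocytes. At least 2 boxes were found in 12 of the 23 genes (52.2%), against 13.3% of all genes. A gene was counted if any of its windows held a box. Of the 29 windows of these genes 19 did, against 37.4% of all windows. Of the 16 enzymes with a window 15 held a box, with Acat2 the exception, and of the 6 genes of the SREBP2 machinery 3 did, namely Srebf2, Insig1 and Insig2, while Scap, Mbtps1 and Mbtps2 had none in these windows. The core of the sterol regulatory element, TCACNCCAC, was found in 1 of the 23 genes (4.35%), Hmgcs1, against 1.44% of all genes. It did not overlap a CCAAT box there. Among all genes higher in knockout-labelled adipocytes 42.5% held a CCAAT box. Nsdhl and Hmgcs1 each held 4 boxes and Mvk held 5. The following windows, each 5′ to 3′ on the strand of its gene, show Hmgcs1 for its element core, Cyp51 and Insig2 as the genes with the largest difference and the smallest p, Nsdhl for its 4 boxes and Mbtps1 as a window without a match. Capitals mark the CCAAT box (ATTGG where it lies on the opposite strand) and, in Hmgcs1, the element core. They lie at chr13:119690101-119690400 on the plus strand for Hmgcs1, chr5:4104648-4104947 on the minus strand for Cyp51, chrX:72918271-72918570 on the plus strand for Nsdhl, chr1:121332540-121332839 on the minus strand for the most upstream of 3 Insig2 windows, and chr8:119558712-119559011 on the minus strand for Mbtps1.
Hmgcs1: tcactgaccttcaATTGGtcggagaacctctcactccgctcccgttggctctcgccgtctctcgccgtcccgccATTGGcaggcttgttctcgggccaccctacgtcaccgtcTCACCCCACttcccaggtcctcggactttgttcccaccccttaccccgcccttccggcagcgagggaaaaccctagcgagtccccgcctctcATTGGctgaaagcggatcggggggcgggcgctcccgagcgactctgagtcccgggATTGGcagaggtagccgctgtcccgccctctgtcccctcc
Cyp51: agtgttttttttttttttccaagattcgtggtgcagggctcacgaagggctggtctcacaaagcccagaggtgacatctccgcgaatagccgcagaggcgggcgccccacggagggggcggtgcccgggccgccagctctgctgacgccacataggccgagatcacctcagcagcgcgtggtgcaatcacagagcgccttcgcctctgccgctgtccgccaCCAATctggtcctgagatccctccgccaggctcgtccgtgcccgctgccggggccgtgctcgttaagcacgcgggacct
Nsdhl: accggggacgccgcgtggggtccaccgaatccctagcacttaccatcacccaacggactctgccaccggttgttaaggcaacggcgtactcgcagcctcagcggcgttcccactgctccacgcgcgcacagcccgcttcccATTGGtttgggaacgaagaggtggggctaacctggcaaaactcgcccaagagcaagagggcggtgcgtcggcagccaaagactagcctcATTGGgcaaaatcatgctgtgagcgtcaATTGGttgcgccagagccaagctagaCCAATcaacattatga
Insig2: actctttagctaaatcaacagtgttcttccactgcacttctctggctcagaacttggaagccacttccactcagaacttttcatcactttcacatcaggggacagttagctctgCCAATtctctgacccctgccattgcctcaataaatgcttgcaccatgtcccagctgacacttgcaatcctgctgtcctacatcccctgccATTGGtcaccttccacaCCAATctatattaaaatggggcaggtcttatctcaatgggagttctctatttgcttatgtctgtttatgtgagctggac
Mbtps1: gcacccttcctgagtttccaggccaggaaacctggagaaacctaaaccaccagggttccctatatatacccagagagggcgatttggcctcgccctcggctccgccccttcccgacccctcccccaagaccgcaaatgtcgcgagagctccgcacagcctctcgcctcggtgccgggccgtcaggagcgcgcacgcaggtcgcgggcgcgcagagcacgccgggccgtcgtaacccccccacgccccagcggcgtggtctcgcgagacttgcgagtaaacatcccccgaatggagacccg

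In the Hmgcs1 window the element core begins 137 bases before the start and lies between boxes that begin 176 and 45 bases before it. The single Cyp51 box begins 29 bases before the start, and the printed Insig2 window holds boxes that begin 136, 46 and 29 bases before it. The other Insig2 windows hold none. The Nsdhl boxes begin 109 and 20 bases before the start and at bases 9 and 35 after it. Of the 41 boxes in all windows 36 began within the 200 bases before a start and 25 within 100 bases. A match is a description of letters, and a window without one says nothing of the factor.

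**Figure D2:**
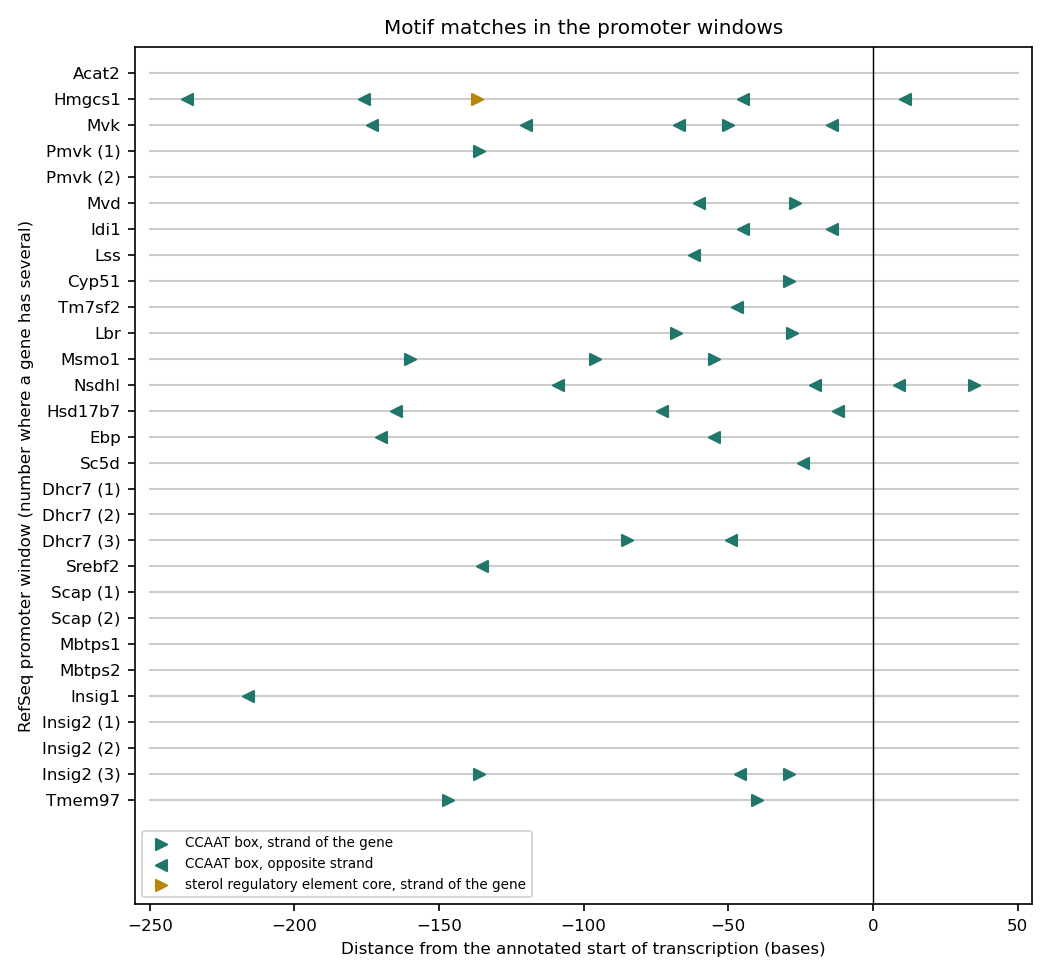
Matches to the CCAAT box and to the sterol regulatory element core in the RefSeq promoter windows, by distance from the annotated start of transcription in bases (arrowheads show the strand; grey lines the 300 bases searched). Of 41 boxes 25 begin within 100 bases before a start. No window of Acat2, Scap, Mbtps1 or Mbtps2 has a box, and neither do windows 1 and 2 of Insig2 and of Dhcr7 or window 2 of Pmvk.

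In liver 0 of the 27 genes passed edgeR's test in either direction, against 0.0226% of the 13288 tested genes that were higher and 0% that were lower. The median log2 difference was 0.01 over the 27 genes, and the SE per gene was 0.08 to 0.28. Above 0 were 16 estimates, of which that of Mbtps1 was 0 to 3 decimals. At an unadjusted p under 0.05 there were 3 genes, Hsd17b7, Sqle and Cyp51, among 1146 in the whole table. Limma-voom called 0 of the 27 and DESeq2 called 2 as higher, Hsd17b7 and Sqle (adjusted p = 0.00634 and 0.0382), against 0.407% of the genes higher by DESeq2. Hsd17b7 alone had groups that did not overlap, against 4.66% of all tested genes. The summed level of the 19 enzymes was 1726 ± 250 CPM (SD, n = 4) in knockout-labelled livers and 1684 ± 140 CPM in wild-type ones, and the groups overlapped.

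Hsd17b7 in liver stood at 42.2, 32.6, 37.5 and 38.2 CPM in the wild-type mice and at 54.3, 62.8, 56.2 and 45.6 CPM in the knockout-labelled mice. The log2 difference was 0.54 ± 0.11 (edgeR adjusted p = 0.26), beside 0.73 in adipocytes. Sqle was at 29.3, 27.8, 30.3 and 46.8 CPM and at 38.7, 64.9, 65.7 and 53.9 CPM, where WT-1153 lay above KO-1137, with a log2 difference of 0.73 ± 0.20 (edgeR adjusted p = 0.38). Cyp51, at 113 ± 10.8 and 139 ± 19.3 CPM (SD), had a log2 difference of 0.31 ± 0.11 (edgeR adjusted p = 0.512). Insig1, Lss and Mvd were at 0.28 ± 0.13, 0.28 ± 0.15 and 0.48 ± 0.28. Srebf2 was at 32.5 ± 3.58 CPM in knockout-labelled livers and 32.9 ± 2.58 CPM in wild-type ones, a log2 difference of -0.02 ± 0.10 (edgeR adjusted p = 0.971). Insig2, the gene with the smallest p in adipocytes, was at 113, 150, 119 and 127 CPM in the wild-type and at 105, 117, 95.7 and 146 CPM in the knockout-labelled mice, which overlap (log2 difference -0.14 ± 0.14, edgeR adjusted p = 0.801).

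**Figure D3:**
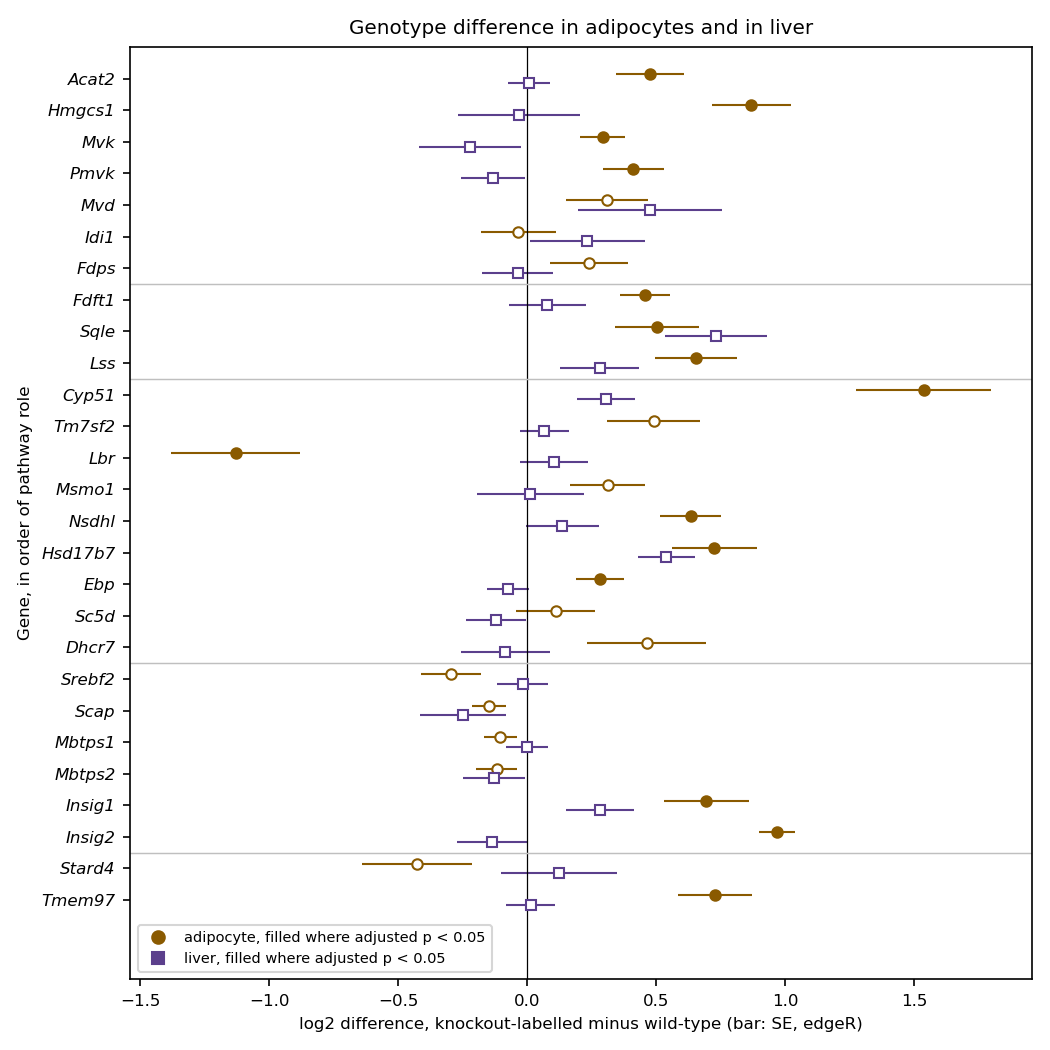
Log2 difference of each gene, knockout-labelled minus wild-type, in adipocytes (circles) and liver (squares) with its SE from edgeR, filled where the adjusted p is under 0.05. In adipocytes 14 genes are filled to the right of 0 and Lbr to the left, and in liver none is filled.

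The genotype difference itself was compared between the tissues in a model of all 16 libraries. It was larger in adipocytes for 7 of the 27 genes and lower for 1, Lbr (edgeR adjusted p under 0.05), against 10.4% and 8.73% of the 14898 tested genes. The difference of the log2 differences was 1.13 ± 0.17 for Insig2 (edgeR adjusted p = 4e-04), 1.25 ± 0.29 for Cyp51 (0.00747) and 0.74 ± 0.16 for Tmem97 (0.00534). It was 0.93 ± 0.31 for Hmgcs1 and 0.57 ± 0.18 for Pmvk (edgeR adjusted p = 0.0469 and 0.0336), and -1.21 ± 0.29 for Lbr (0.00976). Acat2 and Ebp passed narrowly at 0.49 and 0.38 (edgeR adjusted p = 0.0472 and 0.0491). With the mouse as a replicate block, which pairs the tissues, 6 genes were higher and 1 lower: Acat2 and Ebp no longer passed (edgeR adjusted p = 0.0547 and 0.0805) and Nsdhl did (0.52 ± 0.14, adjusted p = 0.0347). Without mouse WT-1135, KO-1137 or KO-1152 the count of higher genes was 3 (Cyp51, Insig2 and Tmem97), and without WT-1138, KO-1139 or KO-1151 it was 4. For Sqle and Hsd17b7 the difference between tissues was -0.21 ± 0.27 and 0.21 ± 0.20 and did not pass (edgeR adjusted p = 0.639 and 0.48).

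Between the tissues of wild-type mice most of the pathway was far lower in adipocytes. Of the 27 genes 20 were lower and 5 higher in adipocytes than in liver (edgeR adjusted p under 0.05, n = 4 per group), against 37.2% and 40.5% of the 14366 tested genes, and the groups did not overlap for 22 of the 27, against 73.4% of all tested genes. The median log2 difference was -1.47 over the 27 genes and 0.06 over all tested genes. The lowest relative to liver were late steps and sterol-binding proteins: Tm7sf2 was lower by a log2 difference of -4.12 ± 0.15, Tmem97 by -3.90 ± 0.12, Ebp by -3.36 ± 0.12, Msmo1 by -3.20 ± 0.15 and Dhcr7 by -3.06 ± 0.14. Fdps, Hsd17b7, Sc5d, Stard4 and Sqle followed at -2.75, -2.72, -2.45, -2.40 and -2.25. For all of these the edgeR adjusted p was at most 1.55e-05. The wild-type tissues also differ in handling, since only adipocytes were digested with collagenase, and handling and tissue cannot be told apart.

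The 5 genes higher in adipocytes were Acat2 (log2 difference 0.57 ± 0.14), Pmvk (0.78 ± 0.13), Lbr (0.64 ± 0.23), Mbtps1 (0.33 ± 0.09) and Mbtps2 (0.32 ± 0.12), at edgeR adjusted p of 0.00291, 0.000193, 0.0251, 0.00566 and 0.0313. With the mouse as a replicate block Mbtps2 did not pass (0.32 ± 0.14, edgeR adjusted p = 0.0563). Without mouse WT-1135 the 3 genes Acat2, Pmvk and Mbtps1 remained higher, and without mouse WT-1138 the 2 genes Acat2 and Pmvk. Mvk and Insig1 did not pass (0.06 ± 0.12 and 0.20 ± 0.13, edgeR adjusted p = 0.66 and 0.179). The scaling matters here: with library totals alone 7 of the 27 genes were higher and 16 lower, and all tested genes split into 8465 higher and 3066 lower in place of 5817 and 5338, with their median moved by 0.65. Relative to that median the 27 genes were at -1.54, which the scaling likewise leaves nearly fixed.

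**Figure D4:**
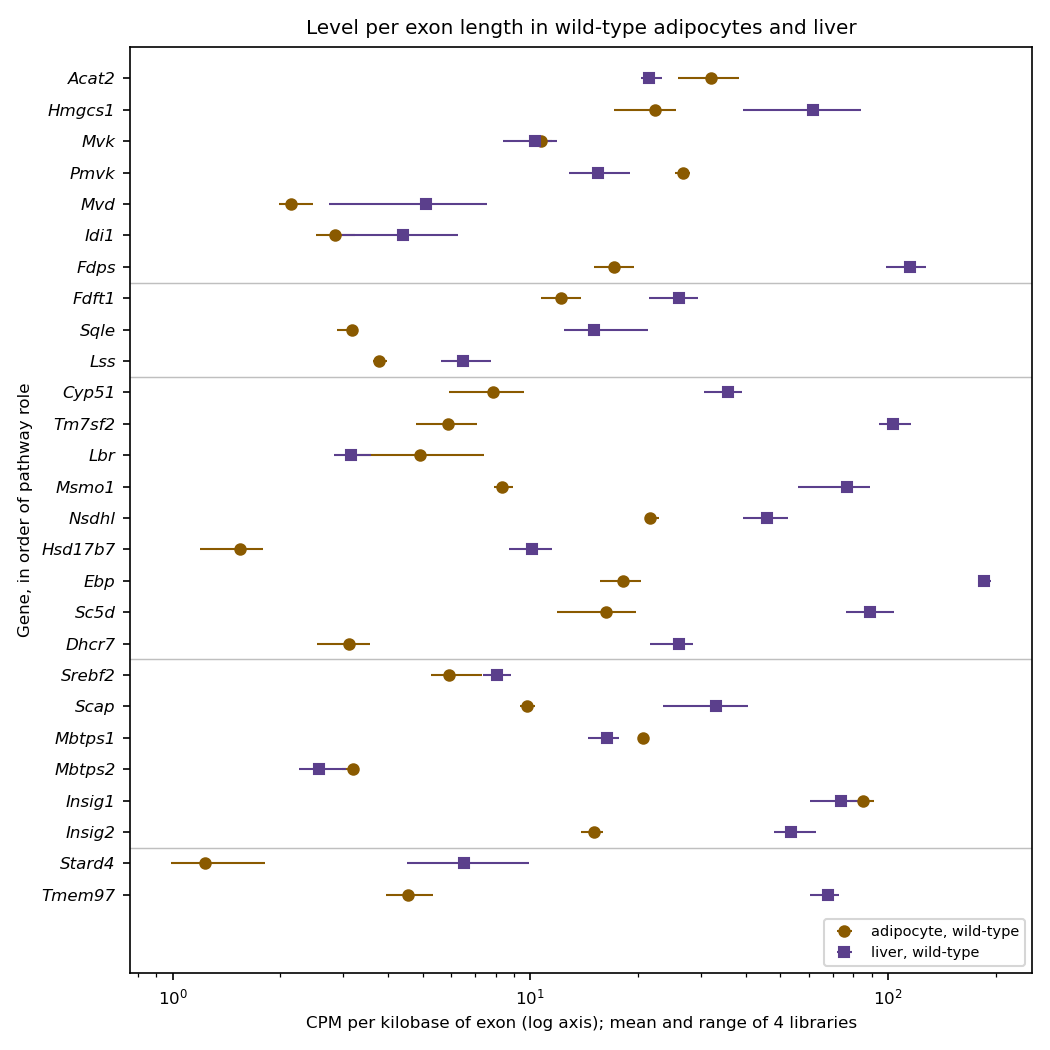
Level of each gene per kilobase of exon (CPM per kilobase, log axis) in wild-type adipocytes (circles) and liver (squares), as the mean and range of 4 libraries. Insig1 is the highest gene in adipocytes at 85.1 and Ebp in liver at 186, and the squares of Tm7sf2, Tmem97, Ebp, Msmo1 and Dhcr7 lie farthest to the right of their circles.

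Levels per kilobase of exon put the genes in another order in each tissue. In wild-type adipocytes Insig1 was highest at 78.5 to 91.4 CPM per kilobase, well above Acat2 (25.8 to 38.2), Pmvk (25.3 to 27.9), Hmgcs1 (17.1 to 25.6) and Nsdhl (21.0 to 22.9), which overlapped as neighbours. The lowest there were Hsd17b7 (1.19 to 1.79) and Stard4 (0.992 to 1.81), which overlapped. In wild-type liver Ebp was highest at 178 to 194, then Fdps (98.5 to 128), Tm7sf2 (94.4 to 116), Sc5d (76.5 to 104) and Msmo1 (56.1 to 88.9), each overlapping the next after Ebp. The lowest in liver were Lbr (2.82 to 3.58) and Mbtps2 (2.25 to 3.05), which overlapped. Srebf2 itself was at 5.26 to 7.33 in adipocytes and 7.36 to 8.83 in liver. The ratio of Insig1 to Insig2 per kilobase was 5.64 ± 0.328 (SD, n = 4) in wild-type adipocytes and 1.39 ± 0.287 in wild-type liver.

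The 27 genes also varied between mice of the same group. In adipocytes mouse KO-1139 had the highest level of the knockout-labelled group for 19 of the 27 genes and the lowest for 0, and in liver the highest for 15 and the lowest for 0. Such counts over all tested genes are not given here, so these are not set against a share. The adipocyte library of mouse KO-1139 also had the largest total of all libraries (53716669 counts) and the lowest TMM factor (0.898). Whether its high values are particular to the 27 genes was not tested. The mean log2 deviation of this mouse over the 27 genes was 0.25 in adipocytes and 0.18 in liver. In liver mouse KO-1151 was also above the group (0.11), and mice KO-1137 and KO-1152 were below it (-0.18 and -0.12). Among the wild-type mice the mean deviations were -0.07 to 0.04 in adipocytes and -0.09 to 0.11 in liver. After removal of the group means, pairs of the 27 genes had a median Pearson r of 0.26 over the 8 adipocyte and 0.31 over the 8 liver libraries, against 0.004 and -0.001 over the pairs of all tested genes. Of the 351 pairs 112 in adipocytes (31.9%) were above 0.5 and 19 (5.41%) under -0.5, against 16.4% and 15.5% of the pairs of all tested genes. In liver 126 pairs (35.9%) were above 0.5 and 23 (6.55%) under -0.5, against 14.9% and 14.9%. The genes of a pair share their libraries, and these values are given as a description. In adipocytes Nsdhl, Cyp51, Sqle and Msmo1 had the highest median r with the other 26 genes, at 0.55, 0.52, 0.52 and 0.52, and Scap the lowest at -0.23. Insig2 and Lbr, both called between the genotypes, had a median r of -0.05 and -0.02 there.

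**Figure D5:**
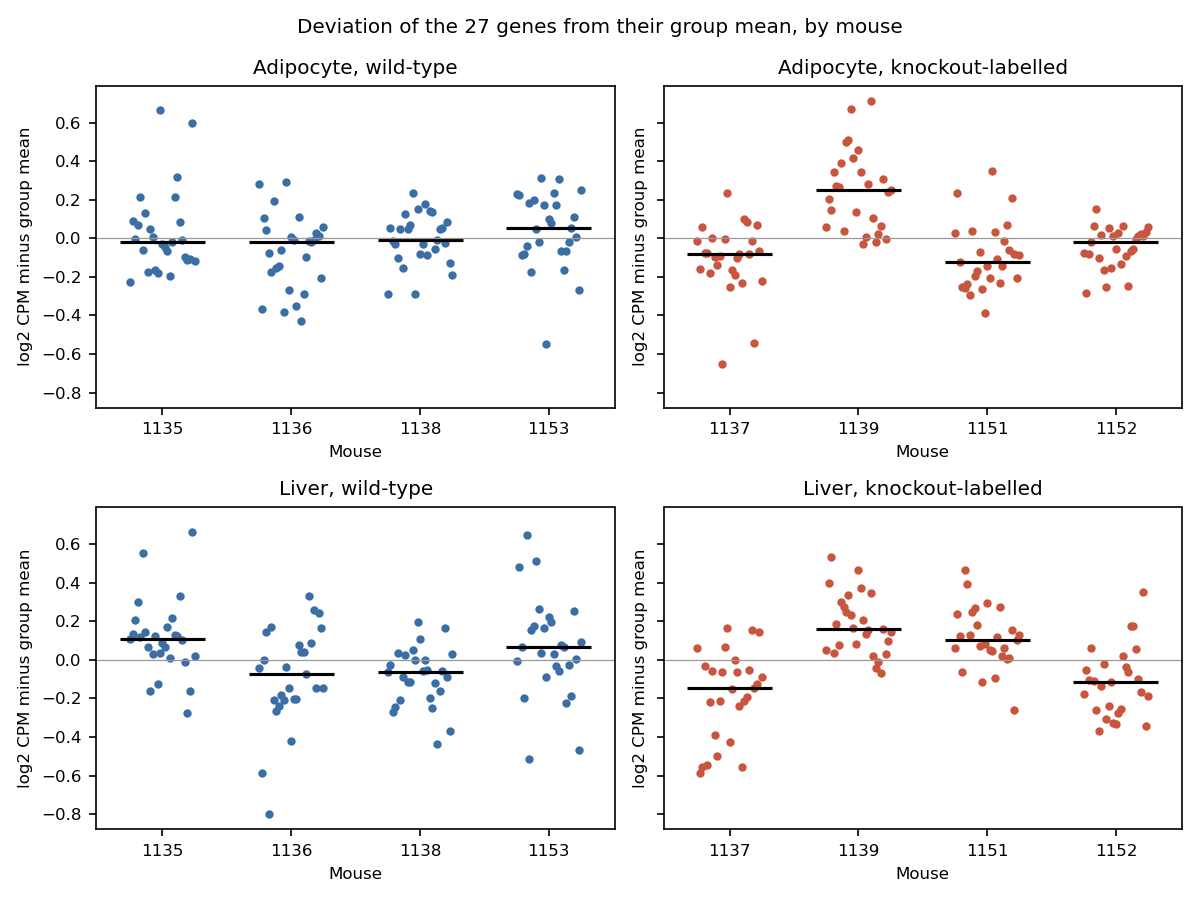
Deviation of the log2 CPM of each of the 27 genes from its group mean, by mouse, in the 4 groups (1 point per gene, bar at the median). The points of mouse KO-1139 lie mostly above 0 in both tissues, with medians of 0.25 in adipocytes and 0.16 in liver.

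Genes around the pathway, from lists chosen with earlier results of these data known, were called in both directions in adipocytes, where 18% of all tested genes were higher and 17.1% lower. Of 6 other sterol synthesis genes 4 were higher and 0 lower (median log2 difference 0.45), among them Acat1, the mitochondrial thiolase (0.49 ± 0.11), and Cyb5r3, which feeds electrons to the sterol oxidases (0.41 ± 0.09). Of 12 genes of the isoprenoid branch 7 were higher and 1 lower (median 0.28), with Nus1, a subunit of the enzyme that makes dolichol chains, at 1.36 ± 0.09 and Rabggtb, a subunit of the Rab prenylating enzyme, at 0.38 ± 0.08. Another list of 17 genes held those that sense sterols or turn over the pathway's proteins, together with the transcription factors NF-Y and Sp1. Of these 2 were higher and 1 lower (median 0.06), with Pgrmc2 at 0.56 ± 0.10 and Rnf145, a ubiquitin ligase, at -0.43 ± 0.11. These 6 named genes had edgeR adjusted p of 0.0077, 0.00871, 3.4e-05, 0.00695, 0.00294 and 0.0141 in the order given.

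Of 18 genes of fatty acid synthesis, the SREBP1 side of the family, 5 were higher and 2 lower in adipocytes (median 0.40), with the desaturase Fads1 at -1.87 ± 0.13 and Gpam, which starts glycerolipid synthesis, at 0.92 ± 0.17. Of 16 tested genes of cholesterol uptake and transport 6 were higher and 2 lower (median 0.10), with the sterol carrier Stard5 at 1.38 ± 0.12 and the ubiquitin ligase Mylip at -1.44 ± 0.18. Of 8 tested liver X receptor targets and efflux genes 4 were higher and 2 lower (median 0.37). Of 6 tested genes of esterification and oxysterol formation 2 were higher, Cyp27a1, the sterol 27-hydroxylase (1.83 ± 0.13), and Soat1, which esterifies cholesterol (1.54 ± 0.15), and 3 were lower (median -0.48). These 6 named genes had edgeR adjusted p of 4.07e-05, 0.00323, 0.000103, 0.000597, 3.62e-05 and 0.000188 in the order given. In liver 0 genes of these 7 lists passed in either direction (edgeR).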

How the data were processed

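The deposited values are unnormalized read counts by gene symbol, which the authors made with bcl2fastq 2.17, STAR 2.5.2b and featureCounts 1.5.0 on mm10, per the submitters' processing notes. For annotation, strand setting and multimapping reads the sources used here give nothing, so counts of the 10 genes that share exon bases with another gene in GENCODE M21 (Hmgcs1, Idi1, Fdps, Fdft1, Lss, Cyp51, Tm7sf2, Lbr, Scap and Mbtps2) and of genes with near-identical copies are uncertain. Of the counts from 1 to 20, 77.9% were even. Each mouse was 1 replicate per tissue.

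Each tissue was fitted with edgeR 4.0.16 (R 4.3.3): quasi-likelihood, TMM, filterByExpr, two-sided, Benjamini-Hochberg over all tested genes, threshold 0.05. All 27 genes passed the filter in each comparison. The tissue difference was fitted on all 16 libraries. Alternatives were DESeq2 1.42.0, limma-voom (limma 3.58.1), other scalings and filters, halved counts, age, a stromal score (prior count 2), each mouse left out, and the mouse as a block. Per the labels, both libraries with the same number are from 1 mouse; their deviations correlated at -0.0592 to 0.0916 over all genes and at -0.127 to 0.491 over the 27 genes. The edgeR script was run on simulated counts with the same dispersion for every gene. Such counts are simpler than the real ones, and the error rate in the real data was not tested.

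The members, lists and tests were chosen with earlier results of these data known. All 27 genes could be named in adipocytes, with values per library for the 8 with the smallest p and for Srebf2, Scap, Insig1 and Insig2; in liver the 6 with the smallest p plus Srebf2, Insig1 and Insig2; between wild-type tissues the 10 largest changes; for the tissue difference the 6 smallest p; and from each other list the 2 genes with the smallest p. The 5 genes higher in wild-type adipocytes, the genes next to a threshold and the levels per kilobase were chosen after their values were seen. Coordinates and exon lengths are GRCm38.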

Additional observations from a re-analysis of the deposited data

Results flagged for a closer look

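Of 108 sets of 4 values (27 genes in 4 groups), 11 held 1 library whose gap to its neighbour was above Dixon's 95% critical share of the whole range, where chance gives about 1 in 20, or 5.4. In knockout-labelled adipocytes mouse KO-1139 was above the others for Sqle (20.1 CPM), Lss (45.3 CPM), Sc5d (119 CPM) and Dhcr7 (22.2 CPM). Mouse KO-1137 was below them for Fdft1 (67.6 against 73.1 to 74.2 CPM). In wild-type adipocytes mouse WT-1135 was above the others for Mvd (5.09 CPM) and Stard4 (10.8 CPM). Mouse WT-1136 was below them for Sqle (9.3 against 10.6 CPM). In liver mouse KO-1152 was below the other knockout-labelled mice for Acat2 (34.6 CPM) and Stard4 (22.7 CPM), and mouse WT-1153 above the other wild-type mice for Sqle (46.8 CPM).

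For 8 genes the genotype difference in adipocytes minus that in liver passed edgeR's test on the log2 scale: Insig2 (1.13), Cyp51 (1.25), Tmem97 (0.74), Hmgcs1 (0.93), Pmvk (0.57), Acat2 (0.49), Ebp (0.38) and Lbr (-1.21).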

How the results depend on the processing

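Insig2 kept its direction and its call in adipocytes under all 19 alternatives (log2 difference 0.78 to 1.01), and Cyp51 and Hmgcs1 under all but the stromal covariate. Mvk and Sqle lost their call in 10 and 9 of them. Ebp lost it in 9 with its direction kept and in 1 more with its direction reversed. The 14 higher and 1 lower adipocyte genes became 9 and 5 with library totals, 6 higher for mice of 76 days, 4 lower (Lbr, Srebf2, Scap and Mbtps1) with a filter of 5 CPM in 4 libraries, and 1 and 0 with the stromal covariate; all genes called there were 1730 for mice of 76 days and 465 with the covariate. Leaving out each mouse gave 10 to 14 higher and 1 to 2 lower. Sc5d turned to -0.08 with library totals and -0.02 with the covariate (range over mice left out -0.011 to 0.216), and Idi1 to 0.076 for mice of 76 days (-0.127 to 0.045). The covariate also turned Lbr (0.072), Ebp (-0.045), Srebf2 (0.18), Scap (0.015) and Stard4 (0.29). In liver DESeq2 called 2 genes and 102 over the table, and over the table there were 5 without a filter, 0 for mice of 76 days, 1 with the covariate and 1 to 3 with a mouse left out; Srebf2 ranged over -0.088 to 0.049. For the tissue difference the 7 higher and 1 lower became 3 and 2 with library totals, 4 higher with the filter of 5 CPM, and 1 and 0 for mice of 76 days, where 666 genes were called over the table; with a mouse left out 3 to 6 were higher and 1758 to 2988 genes were called over the table. Between wild-type tissues 2 to 5 genes were higher with a mouse left out. With the mouse as a replicate block, the pairing of the tissues, 4 genes were higher and 20 lower between wild-type tissues, and 6 higher and 1 lower for the tissue difference; besides Mbtps2, Acat2, Ebp and Nsdhl no call among the 27 genes changed. A left-out mouse or age leaves fewer samples; otherwise the cause was not tested. Each of these genes had at least 117 counts in every library, and the part of counting error was not estimated.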
